A study of Mus musculus with 12 samples.

Results

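Adipoq, Cfd, Retn, Lep, Cidec, Cidea, Ucp1, Lipe, Pnpla2 and Mgll are genes of fat cells and of lipolysis, the release of fatty acids from stored fat. They were taken by gene symbol, which gave 10 of the 20194 genes of the RNA table and, by the gene name the authors' annotation put on each peak, 13 of the 38244 peaks of the chromatin table. Cachexia is the wasting of muscle and fat in cancer, and the 12 libraries of the study asked how gene expression and chromatin in muscle respond to it. PolyA RNA was sequenced from muscle of C57BL/6 mice. For 3 libraries it was taken 22 days after injection of 500000 LLC cells, a mouse lung carcinoma line, under the skin. The other 3 RNA libraries came from mice injected with PBS and are also labelled day 22. ATAC-seq, which reads open chromatin, was done on myotubes of C2C12, a myoblast line from C3H mice, in 3 libraries after 24 hours in medium conditioned by C26 colon carcinoma cells and in 3 control libraries. The labels do not say which muscle was taken, nor from how many animals each library came, and the ATAC libraries come from a single cell line, labelled myoblast although the titles say myotubes. Where nothing says that libraries came from separate animals or cultures, the p-values measure only the spread between these libraries.

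A fat cell keeps its triglyceride in a lipid droplet. When hormones call for fuel, adipose triglyceride lipase (Pnpla2), hormone-sensitive lipase (Lipe) and monoglyceride lipase (Mgll) take off the fatty acids one after another. Fat cells also secrete adiponectin (Adipoq), the complement protease adipsin (Cfd), resistin (Retn) and leptin (Lep), coat their droplets with the fusion protein Cidec, and in brown fat burn fuel through the uncoupling protein Ucp1. Muscle fibres carry the lipases too, whereas the secreted proteins are, in mice, textbook marks of fat cells, which lie between muscle fibres and around the muscle.

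The sequences just before the starts of 4 of the genes are given because the myotube chromatin had peaks at the starts of Lipe and Pnpla2 and none at the starts of Adipoq and Lep. They come from RefSeq (build GRCm38.p6, the assembly also called mm10), run 5′ to 3′ on the gene's strand and cover the 250 bases upstream of each start, and capitals mark matches to the motifs searched. Those were a FOXO site (GTAAACA), a glucocorticoid response element, a C/EBP site (TTGCNNAA), a PPAR response element, a CRE (TGACGTCA), a GC box (GGGCGG) and a TATA box (TATAAA), each on both strands, with overlapping matches counted. RefSeq promoters of 9 of the 10 genes were searched, 12 in all, and Cidea was left out of this search.
Lipe, inner start, chr7:25390113-25390362, minus strand: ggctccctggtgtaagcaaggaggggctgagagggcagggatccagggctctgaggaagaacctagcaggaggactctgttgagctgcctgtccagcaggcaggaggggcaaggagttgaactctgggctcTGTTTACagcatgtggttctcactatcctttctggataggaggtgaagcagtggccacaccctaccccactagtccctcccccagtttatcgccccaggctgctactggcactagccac
Lipe, outer start, chr7:25395988-25396237, minus strand: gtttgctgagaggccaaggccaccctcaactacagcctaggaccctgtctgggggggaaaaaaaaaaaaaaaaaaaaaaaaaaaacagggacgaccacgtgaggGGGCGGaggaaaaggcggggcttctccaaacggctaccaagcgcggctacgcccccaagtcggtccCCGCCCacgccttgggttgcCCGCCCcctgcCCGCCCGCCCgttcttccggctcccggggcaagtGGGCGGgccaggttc
Pnpla2, chr7:141454938-141455187, plus strand: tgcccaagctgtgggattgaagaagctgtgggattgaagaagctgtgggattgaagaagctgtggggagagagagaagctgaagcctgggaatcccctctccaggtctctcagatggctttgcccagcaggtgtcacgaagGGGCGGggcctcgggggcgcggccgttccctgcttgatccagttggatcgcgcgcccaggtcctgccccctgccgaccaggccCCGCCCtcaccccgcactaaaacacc
Adipoq, chr16:23146286-23146535, plus strand: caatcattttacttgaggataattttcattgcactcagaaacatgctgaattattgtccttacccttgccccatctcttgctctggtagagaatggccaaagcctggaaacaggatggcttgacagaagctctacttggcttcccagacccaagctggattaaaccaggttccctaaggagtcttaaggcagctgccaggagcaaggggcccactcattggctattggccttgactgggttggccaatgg
Lep, chr6:29059971-29060220, plus strand: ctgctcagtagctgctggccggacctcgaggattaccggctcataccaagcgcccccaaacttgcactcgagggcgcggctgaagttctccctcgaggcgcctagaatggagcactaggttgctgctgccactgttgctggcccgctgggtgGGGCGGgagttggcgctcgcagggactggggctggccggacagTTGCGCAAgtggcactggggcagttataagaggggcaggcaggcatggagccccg
The inner Lipe promoter lay wholly inside a peak and held TGTTTAC, the FOXO letters read on the other strand, 119 bases before the start. Those letters occur in 3.17% of the 32851 mouse promoters of this length. The outer Lipe promoter, with 116 of its bases inside a peak, held 6 GC-box matches, and the Pnpla2 promoter, with 152 bases inside a peak, held 2. A GC box occurs in 32.7% of promoters. The Lep promoter held 1 GC box and TTGCGCAA, a C/EBP match found in 9.56% of promoters, 55 bases before its start, and the Adipoq promoter held none of the letters searched and 0 CpG. None of the 12 promoters held the glucocorticoid element, the PPAR element, the CRE or the TATA letters, which occur in 0.387%, 0.0335%, 1.55% and 12.4% of promoters. Among the promoters not printed, a promoter of Mgll held the FOXO letters GTAAACA, 241 bases before its start, outside any peak. The other Mgll promoter held a GC box 121 bases before its start. A promoter of Cidec held TTGCTCAA, a C/EBP match, 198 bases before its start. Those of Retn, Ucp1 and Cfd held none of the letters searched. These are matches of letters and not shown sites.

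In the muscle RNA, 9 of the 10 genes had tags in every library, Ucp1 being the exception, and 1 LLC library, LLC 3, carried more Adipoq, Cfd, Retn and Cidec RNA than any other. No tested gene passed the threshold between LLC and PBS muscle: by limma on log2(FPKM + 1), at an adjusted p under 0.05, 0 of the 9 tested genes and 0 of 12981 genes in all were called (0%). FPKM is the authors' number of fragments per kilobase of transcript, scaled to the depth of the library. At an unadjusted p under 0.05 the limma fit held 991 genes (7.63%), among them Pnpla2 and Mgll. On the recovered reads, edgeR called 1 gene (0.0077%) and DESeq2 called 267. The lipases Pnpla2 and Mgll were the 2 of the 9 whose LLC values all lay above the PBS values, a pattern that 9.5% of all tested genes had, and none had the reverse pattern, which 3.94% had. Of the 9, 7 had a positive and 2 a negative log2 difference, with a median of 0.65 beside 0.01 over all tested genes. In bulk muscle, fewer cells of a type and less RNA per cell cannot be told apart.

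The libraries held 17.3 to 20.1 M tags in LLC and 17.0 to 18.9 M in PBS, a tag being a read pair. The fibre markers of muscle summed to 40916, 45953 and 48470 FPKM in LLC libraries 1 to 3, against 44671, 41833 and 35811 FPKM in PBS libraries 1 to 3. Markers of other tissues were uneven between libraries. Neutrophil and marrow markers summed to 5858, 10337 and 181 FPKM in LLC libraries 1 to 3, against 122, 6179 and 11728 FPKM in PBS libraries 1 to 3, so LLC 3 and PBS 1 stood low. All 10 epidermis markers were highest in LLC 1, beside 11.5% of all tested genes. These markers summed to 1563, 80.5 and 622 FPKM in LLC libraries 1 to 3, against 2.18, 10.7 and 145 FPKM in PBS libraries 1 to 3. Bone and tendon markers summed to 189, 60.8 and 15.1 FPKM in LLC libraries 1 to 3, against 328, 414 and 294 FPKM in PBS libraries 1 to 3. Macrophage markers overlapped, with 332 to 1019.5 FPKM in LLC and 200.5 to 1577 FPKM in PBS, and so did fat precursor and stromal markers, with 650.5 to 779.9 FPKM in LLC and 525 to 1009 FPKM in PBS. No gene of these lists passed, and the part of these tissues in the results was not tested.

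**Figure D1:**
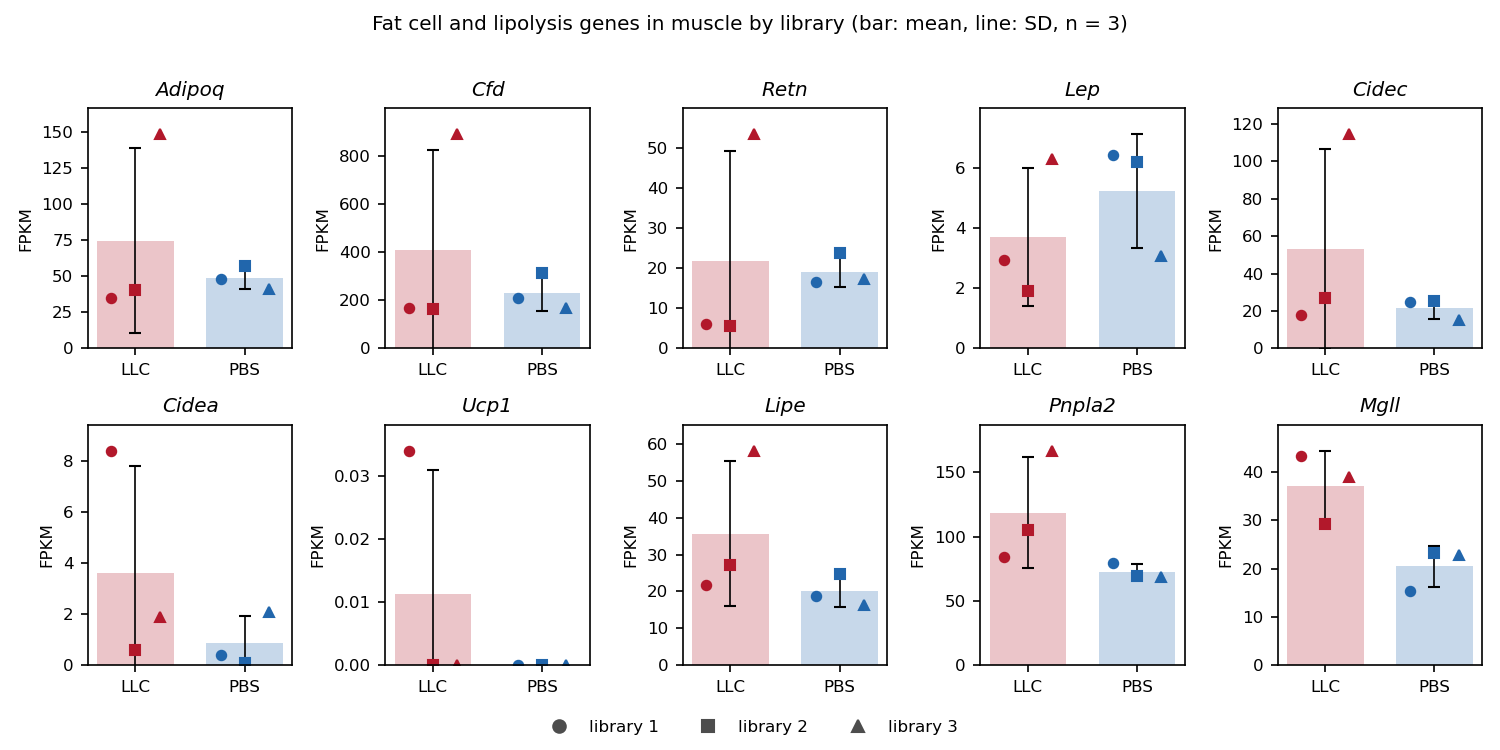
FPKM of the 10 genes (vertical axis, linear, from 0, its own scale in each panel) in LLC muscle (red, left) and PBS muscle (blue, right), with 1 symbol per library, bars for the mean and lines for the SD of 3, ended at 0 where they would pass below it. LLC 3 (triangle) is far above all other libraries for Adipoq, Cfd, Retn and Cidec, whereas all 3 LLC libraries lie above the PBS libraries for Pnpla2 and Mgll.

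Adiponectin, a hormone that raises fatty acid use in muscle and liver, had 34.8, 40.4 and 148 FPKM for Adipoq in LLC libraries 1 to 3, against 48.3, 57.1 and 41.2 FPKM in PBS libraries 1 to 3. LLC 1 and LLC 2 were the lowest of the 6 and LLC 3 was the highest, at 2.60 times the next library. The group means were 74.5 ± 64.0 FPKM in LLC and 48.9 ± 7.93 FPKM in PBS (SD, n = 3 each), a log2 difference of 0.29 with an SE of 0.56 (limma adjusted p = 0.9998). Without LLC 3 the difference was -0.36, and the LLC values then all lay below the PBS values.

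Cfd encodes adipsin, the protease that starts the alternative complement pathway and one of the most abundant products of mouse fat. It had the highest level of the 10 genes, with 169, 163 and 890 FPKM in LLC libraries 1 to 3, against 209, 315 and 168 FPKM in PBS libraries 1 to 3. LLC 3 was at 2.83 times the next library, while LLC 1 and LLC 2 stood beside the lowest PBS library, PBS 3. The log2 difference was 0.38 with an SE of 0.71 over all libraries and -0.42 without LLC 3. Of the 7 other complement genes of that pathway that were tested, 0 passed, 5 had a positive difference and none had groups that did not overlap. Their central component C3 had 54.2, 81.0 and 109 FPKM in LLC libraries 1 to 3, against 49.1, 61.6 and 48.9 FPKM in PBS libraries 1 to 3.

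For resistin, a secreted protein that in mice comes from fat cells, the LLC libraries lay on both sides of the PBS ones. Retn had 6.12, 5.62 and 53.3 FPKM in LLC libraries 1 to 3, against 16.5, 23.6 and 17.3 FPKM in PBS libraries 1 to 3. LLC 1 and LLC 2 had well under the lowest PBS value and LLC 3 had 2.25 times the highest one. The log2 difference over all 6 libraries was -0.54 with an SE of 0.84, and edgeR gave it the other sign, 0.20. Without LLC 3 it was -1.53, with an unadjusted limma p of 0.000697 and an adjusted p of 0.559. The fit without LLC 3 was picked out after the values were seen, so its p describes and does not test. LLC 1 and 2 averaged 5.87 FPKM, 0.307 times the PBS mean of 19.1 ± 3.93 FPKM (SD, n = 3).

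Leptin, the hormone that reports fat stores to the brain, was at low levels. Lep had 2.92, 1.90 and 6.29 FPKM in LLC libraries 1 to 3, against 6.43, 6.19 and 3.06 FPKM in PBS libraries 1 to 3. LLC 3 lay beside the higher PBS libraries, so leptin did not share the excess of LLC 3 seen for the other secreted proteins. For Lep the log2 difference was -0.46 with an SE of 0.41 over all libraries and -0.83 without LLC 3. Relative to Adipoq in the same library, Lep was 0.0840, 0.0470 and 0.0424 in LLC libraries 1 to 3, against 0.133, 0.109 and 0.0742 in PBS libraries 1 to 3, and these ratios overlapped between the groups.

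Cidec joins small lipid droplets into the single large droplet of a white fat cell. It had 18.1, 26.9 and 115 FPKM in LLC libraries 1 to 3, against 24.6, 25.3 and 14.96 FPKM in PBS libraries 1 to 3. LLC 3 was at 4.27 times the next library, the largest such excess among the 10 genes, and the other 5 libraries were mixed. Its log2 difference was 0.84 with an SE of 0.69, and 0.06 without LLC 3.

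Cidea, a relative of Cidec found on droplets of brown fat and of the sebaceous gland in the skin, went with another library. It had 8.42, 0.574 and 1.90 FPKM in LLC libraries 1 to 3, against 0.407, 0.068 and 2.09 FPKM in PBS libraries 1 to 3. LLC 1 was at 4.02 times the next library, a gap of over 2-fold that 1.69% of all tested genes had in LLC 1, and the other LLC libraries lay among the PBS ones. For Cidea the log2 difference was 1.07 with an SE of 0.74 (limma adjusted p = 0.963), and 0.36 without LLC 1. All 7 tested markers of the sebaceous gland were also highest in LLC 1, beside 11.5% of all tested genes. LLC 1 was singled out after values were seen, so that share is no fair background. The list summed to 99.0, 16.8 and 12.0 FPKM in LLC libraries 1 to 3, against 9.74, 13.4 and 30.0 FPKM in PBS libraries 1 to 3. Among its genes, the keratin Krt79 had 32.0, 0.871 and 0.992 FPKM in LLC libraries 1 to 3, against 0.169, 0.240 and 5.82 FPKM in PBS libraries 1 to 3. The gap was small for Soat1, with 4.73 FPKM in LLC 1, 4.58 in LLC 2 and 4.42 in PBS 3. Awat2 and Dgat2l6 did not reach the mean level needed for a test.

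Ucp1, the uncoupling protein that marks brown fat, was at or near 0 in every library. A single tag was recovered in LLC 1, which is 0.034 FPKM, and 0 tags in the other 5 libraries. A count of 0 allows up to 3 tags, or 0.0914 to 0.108 FPKM depending on the library, and this limit covers counting error only. Ucp1 did not reach the mean of 1 FPKM needed for a test. Of the 15 brown and beige fat genes listed, 9 were tested and 0 passed. Ucp3, an uncoupling protein relative made in muscle fibres, had 28.9, 46.6 and 48.4 FPKM in LLC libraries 1 to 3, against 12.4, 8.35 and 6.14 FPKM in PBS libraries 1 to 3. Its log2 difference was 2.10 with an SE of 0.31 (limma adjusted p = 0.157). Cpt1b, which brings fatty acids into muscle mitochondria, averaged 102 ± 6.27 FPKM in LLC and 69.6 ± 15.02 FPKM in PBS (SD, n = 3 each). For both genes the LLC values lay wholly above the PBS values.

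Of the lipases, Pnpla2 and Mgll were higher in each LLC library than in any PBS library, and Lipe was not. Pnpla2, whose product takes the first fatty acid off triglyceride and is made in muscle fibres as well as fat, had 84.4, 105 and 167 FPKM in LLC libraries 1 to 3, against 79.7, 69.1 and 68.3 FPKM in PBS libraries 1 to 3. Every LLC library lay above every PBS library, LLC 1 by little and LLC 3 by most. The means were 119 ± 42.9 FPKM in LLC and 72.4 ± 6.35 FPKM in PBS (SD, n = 3 each). The log2 difference was 0.65 with an SE of 0.26, and limma gave an unadjusted p of 0.0479 and an adjusted p of 0.646. Without LLC 3 the difference was 0.38 and the groups still did not overlap.

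Lipe encodes the lipase that takes the second fatty acid. It had 21.8, 27.2 and 58.3 FPKM in LLC libraries 1 to 3, against 18.8, 24.8 and 16.4 FPKM in PBS libraries 1 to 3. LLC 3 was at 2.14 times the next library and LLC 1 lay between PBS libraries, so the groups overlapped. The log2 difference was 0.70 with an SE of 0.38 (limma adjusted p = 0.846) and 0.29 without LLC 3. The reads were counted on both strands, and the long noncoding gene 4732471J01Rik runs against Lipe over 6208 bases of its span. That gene had 9.94, 12.4 and 27.6 FPKM in LLC libraries 1 to 3, against 10.8, 11.5 and 7.29 FPKM in PBS libraries 1 to 3, and reads of the pair cannot be told apart where they overlap.

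Mgll, whose product frees the last fatty acid and also degrades the endocannabinoid 2-arachidonoylglycerol, had the smallest p of the 9. It had 43.5, 29.3 and 39.0 FPKM in LLC libraries 1 to 3, against 15.4, 23.2 and 22.7 FPKM in PBS libraries 1 to 3. The groups did not overlap, and LLC 3 was not the highest library. The means were 37.2 ± 7.25 FPKM in LLC and 20.4 ± 4.35 FPKM in PBS (SD, n = 3 each), a fold of 1.82. The log2 difference of 0.84 with an SE of 0.22 had a limma p of 0.00959 and an adjusted p of 0.411. It was 0.80 without LLC 3 and ran from 0.66 to 0.997 as each library was left out. DESeq2, which called 2.06% of the genes it tested, called Mgll at an adjusted p of 0.00893, whereas edgeR gave an adjusted p of 0.379.

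**Figure D2:**
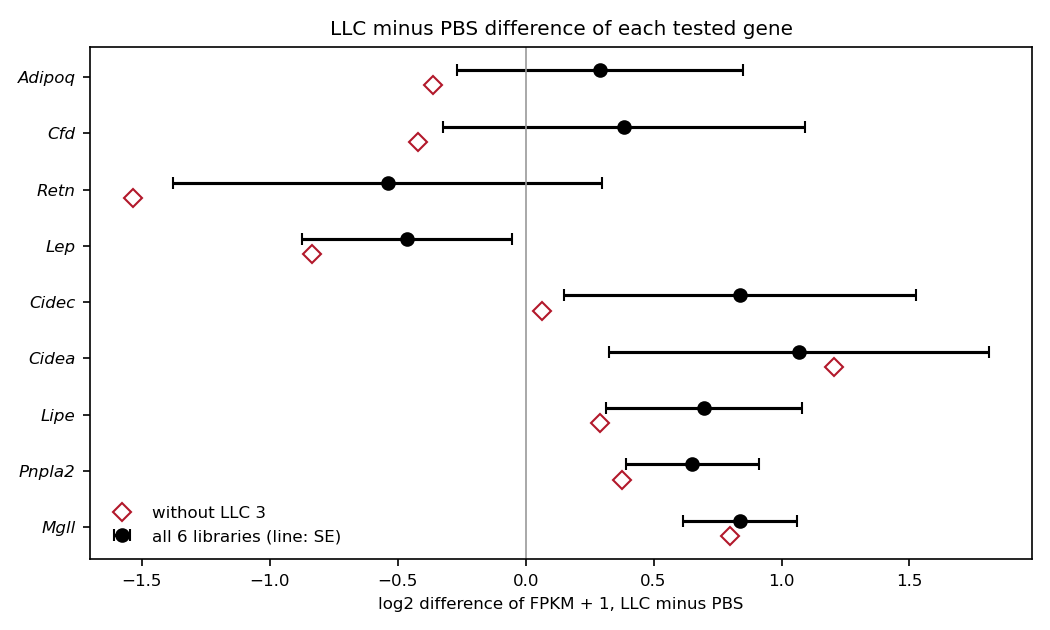
Log2 difference of FPKM + 1, LLC minus PBS (horizontal axis), for the 9 tested genes, with all 6 libraries (black, lines for the SE) and without LLC 3 (open red). Leaving out LLC 3 moves Adipoq and Cfd from 0.29 and 0.38 to -0.36 and -0.42, whereas Mgll stays near 0.80.

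LLC 3 was the highest library for 6 of the 9 tested genes, beside 14.7% of all tested genes, and exceeded every other library more than 2-fold for 5 of them, namely Adipoq, Cfd, Retn, Cidec and Lipe, beside 0.424% of all tested genes. Without LLC 3, the LLC values of 3 genes, Adipoq, Retn and Lep, lay wholly below PBS, beside 5.52% of all genes, and those of 2, Pnpla2 and Mgll, wholly above, beside 12.1%. The median log2 difference over the 9 was then 0.06. LLC 3 was singled out after the values of these genes were seen. The shares over all genes are therefore no fair background for these counts.

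Most other fat cell markers were also highest in LLC 3. Of 20 genes listed, 18 were tested, 0 passed, and 13 were highest in LLC 3, beside 14.7% of all tested genes. LLC 3 exceeded every other library more than 2-fold for 5 of the 18, beside 0.424% of all tested genes. Because LLC 3 was singled out by fat cell genes of these same libraries, these shares are no fair background for this list either. Summed, the list had 635, 800 and 1595 FPKM in LLC libraries 1 to 3, against 457, 636 and 462 FPKM in PBS libraries 1 to 3. Fabp4 and Lpl made up most of these sums. Without these 2 genes, which were set aside after their values were seen, the list summed to 119, 122 and 317 FPKM in LLC libraries 1 to 3, against 128, 198 and 118.5 FPKM in PBS libraries 1 to 3, so that LLC 3 alone stood above the PBS range. The beta-3 adrenergic receptor Adrb3, through which catecholamines start lipolysis in fat, had 0.511, 0.879 and 13.6 FPKM in LLC libraries 1 to 3, against 1.33, 3.76 and 1.22 FPKM in PBS libraries 1 to 3. The droplet coat protein Plin1 had 10.5, 7.22 and 36.6 FPKM in LLC libraries 1 to 3, against 14.8, 22.4 and 11.2 FPKM in PBS libraries 1 to 3. For both genes LLC 3 was the highest library and LLC 1 and 2 were the lowest. The median log2 difference of the list was 0.20, and -0.14 without LLC 3.

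Of that list, Pparg, Agpat2, Npr3, Pnpla3 and Thrsp were the tested genes that were not highest in LLC 3. Pparg had 5.6, 4.8 and 9.1 FPKM in LLC libraries 1 to 3, against 5.7, 10.0 and 9.7 in PBS libraries 1 to 3. Pnpla3, a relative of Pnpla2 whose product sits on droplets, was lower in every LLC library, with 1.71, 1.14 and 1.73 FPKM in LLC libraries 1 to 3, against 3.62, 5.26 and 2.34 FPKM in PBS libraries 1 to 3 (log2 difference -0.87, SE 0.26). Thrsp, a regulator of fat synthesis, averaged 16.2 ± 7.04 FPKM in LLC and 25.5 ± 6.88 FPKM in PBS (SD, n = 3 each), with overlapping groups. Fabp4, a fatty acid carrier of fat cells and capillary endothelium, was higher in all LLC libraries and highest in LLC 3, with 384, 544 and 1041 FPKM in LLC libraries 1 to 3, against 199.5, 348 and 273 FPKM in PBS libraries 1 to 3. Lpl, the lipase that takes fatty acids from blood lipoproteins, averaged 167 ± 59.8 FPKM in LLC and 96.7 ± 29.7 FPKM in PBS (SD, n = 3 each). It was also highest in LLC 3, and its groups did not overlap but nearly met, with 131.6 FPKM in LLC 1 and 129.2 FPKM in PBS 1. Of 7 endothelial markers, 5 had LLC values wholly above PBS, beside 9.5% of all tested genes. Kdr and Emcn did not, with log2 differences of -0.21 and 0.03. The list summed to 228, 264 and 295 FPKM in LLC libraries 1 to 3, against 143, 140 and 117 FPKM in PBS libraries 1 to 3. The part of endothelium in the values of Fabp4 and Lpl was not tested.

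**Figure D3:**
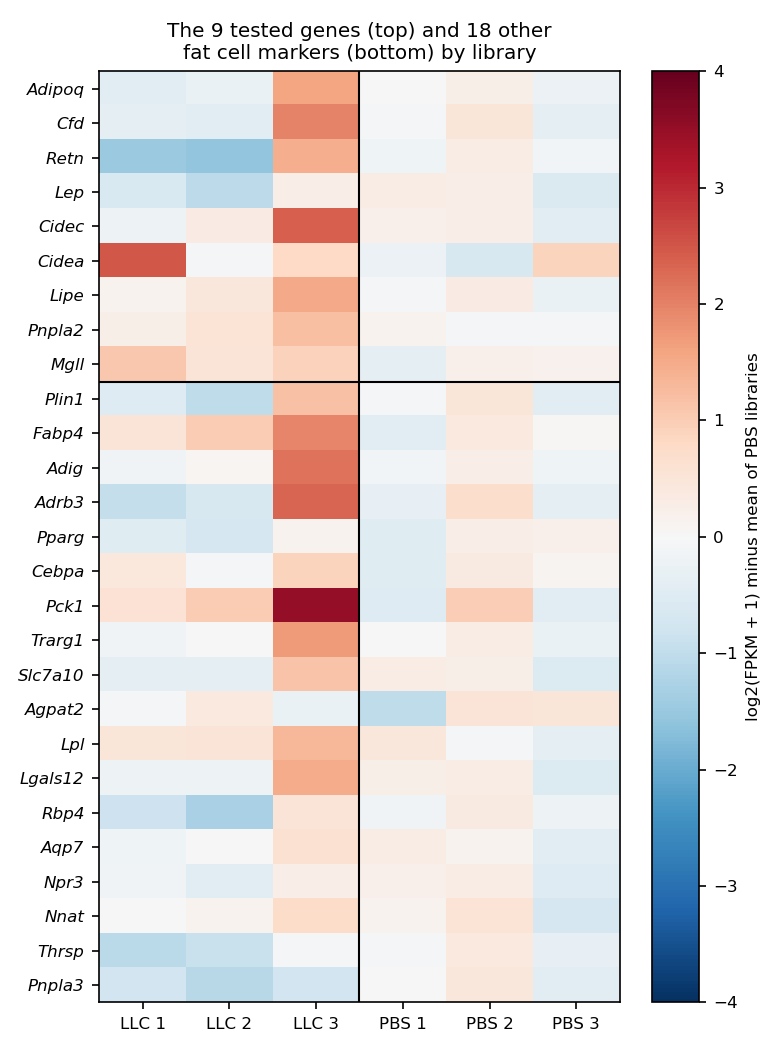
Log2(FPKM + 1) minus the mean of the PBS libraries (colour) for the 9 tested genes, above the black line, and 18 other fat cell markers, below it, in LLC (left) and PBS (right) libraries. LLC 3 is the highest library for 6 of the 9 and for 13 of the 18, whereas Cidea is highest in LLC 1, and Pnpla3 is lower in all 3 LLC libraries.

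**Figure D4:**
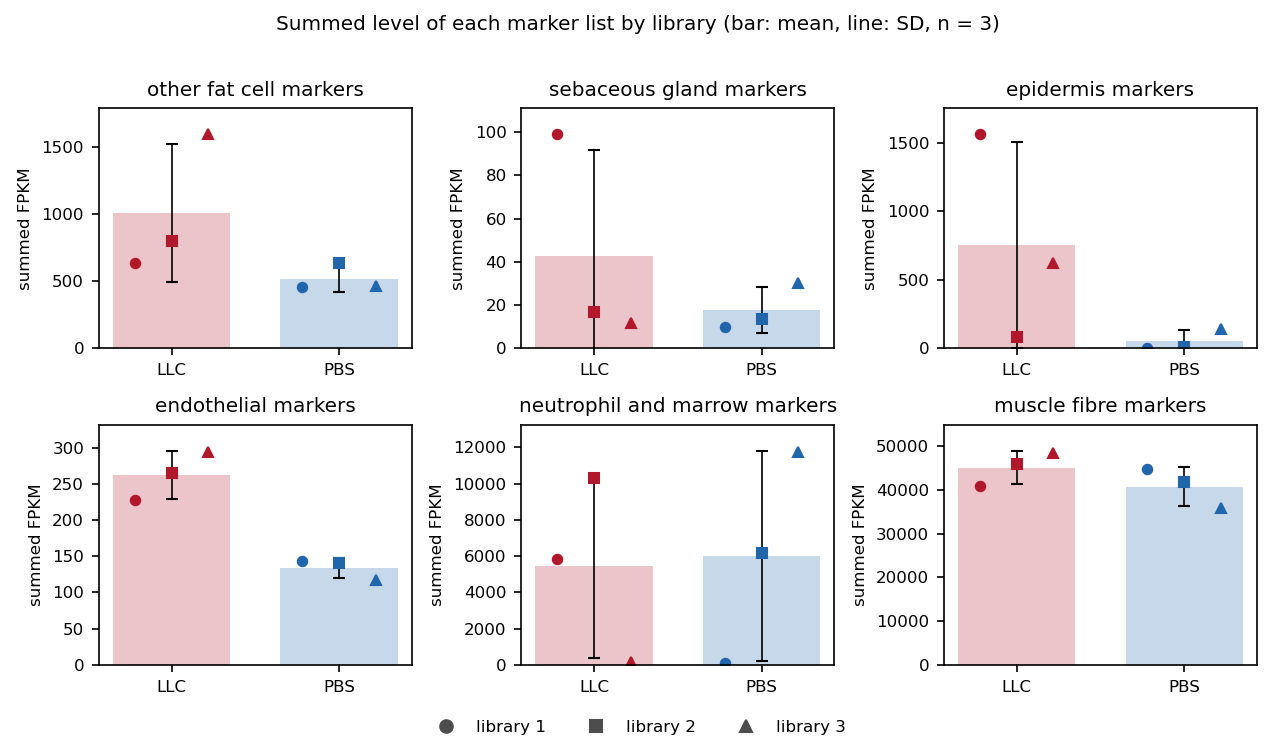
Summed FPKM of 6 marker lists (vertical axis, linear, from 0) in LLC (red, left) and PBS (blue, right) libraries, 1 symbol per library, with the mean as a bar and the SD of 3 as a line. Fat cell markers, Fabp4 and Lpl included, peak in LLC 3 at 1595 FPKM and sebaceous gland and epidermis markers in LLC 1 at 99.0 and 1563 FPKM, and endothelial markers are above PBS in all LLC libraries.

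Among 25 regulators of lipolysis, 24 were tested and 0 passed; 18 had a positive and 6 a negative log2 difference, with a median of 0.12, and without LLC 3 13 were positive with a median of 0.04. The LLC values of 4 lay wholly above PBS, beside 9.5% of all tested genes, and those of 2 wholly below, beside 3.94%. Without LLC 3 these counts were 4, beside 12.1%, and 6, beside 5.52%. Plin5, which holds the first lipase at droplets of muscle and heart, had the smallest p, with 9.56, 10.6 and 8.14 FPKM in LLC libraries 1 to 3, against 3.11, 2.94 and 3.79 FPKM in PBS libraries 1 to 3. Its log2 difference was 1.28 with an SE of 0.15 (limma adjusted p = 0.138), and 1.38 without LLC 3. G0s2, the inhibitor of the first lipase, had 25.2, 30.2 and 39.7 FPKM in LLC libraries 1 to 3, against 11.9, 21.1 and 22.7 FPKM in PBS libraries 1 to 3. Npr1, the receptor through which natriuretic peptides act, averaged 11.2 ± 0.535 FPKM in LLC and 7.40 ± 1.62 FPKM in PBS (SD, n = 3 each). Fabp4 was the fourth of the genes wholly above PBS. Gnas and Prkacb, a G protein subunit and a catalytic subunit of protein kinase A, had LLC values wholly below PBS.

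Of 6 receptors for the secreted hormones that were tested, 0 passed, and Adipor2, a receptor for adiponectin, was the only one whose groups did not overlap, with 34.3, 36.6 and 48.5 FPKM in LLC libraries 1 to 3, against 31.1, 29.9 and 30.2 FPKM in PBS libraries 1 to 3. Of 8 other genes of monoacylglycerol and endocannabinoid turnover, 6 were tested and 0 passed, and none had groups that did not overlap. Abhd6, which shares the substrate of Mgll, averaged 2.55 ± 0.622 FPKM in LLC and 1.97 ± 0.689 FPKM in PBS (SD, n = 3 each).

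Set against Adipoq in the same library, Pnpla2 was at 2.43, 2.60 and 1.13 in LLC libraries 1 to 3, against 1.65, 1.21 and 1.66 in PBS libraries 1 to 3. Mgll per Adipoq was 1.25, 0.724 and 0.263 in LLC libraries 1 to 3, against 0.319, 0.406 and 0.551 in PBS libraries 1 to 3. In both ratios LLC 1 and 2 were above every PBS library and LLC 3 was below them all. Retn per Adipoq was 0.176, 0.139 and 0.360 in LLC libraries 1 to 3, against 0.341, 0.414 and 0.419 in PBS libraries 1 to 3, so resistin was low in LLC 1 and 2 even relative to adiponectin.

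Likeness of profile was measured as the root mean square difference of centred log2(FPKM + 1) over the 6 libraries. The genes most like Adipoq were Trarg1 (0.14), a regulator of the insulin-driven glucose transporter in fat, Car5b, Slc1a3, Hcar1, Lgals12, Ces1d, Ciita and, as the eighth, Cfd (0.22). Lipe stood at rank 27 and Cidec at rank 33, while Pnpla2 stood at 85, Lep at 251, Retn at 335 and Mgll at 6643. Among the genes most like Pnpla2 were the circadian clock gene Per1 (0.09), the cholesterol exporter Abca1, Phyhd1, Cd300lg, Ddi2, Slco2b1 and Rsc1a1 (0.15).

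In the C2C12 myotubes, 7 of the 13 peaks were named for the lipases, and peaks at a gene start were found at Lipe and Pnpla2 only. Of the 13 peaks, Lipe and Mgll had 3 each, Adipoq and Ucp1 had 2 each, Cfd, Lep and Pnpla2 had 1 each, and Retn, Cidec and Cidea had 0. Lipe and Pnpla2 were the only 2 of the 10 genes with a peak within 1000 bp of the start used in the RNA table, beside 56% of all genes and 75.5% of those with a mean of at least 1 FPKM in the muscle. The nearest peak of any name lay 1873 bp from the start of Adipoq, 6082 bp from that of Cfd, 6668 bp from Cidec, 11472 bp from Ucp1, 16239 bp from Retn, 21874 bp from Mgll, 25639 bp from Cidea and 27605 bp from Lep.

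Values are tags in a peak per 10 M tags of the library, as the authors scaled them. The C26 libraries held 12.8, 14.4 and 18.2 M tags, against 11.2, 14.8 and 10.1 M in the control libraries, and 13.0%, 12.0% and 13.5% of these lay in peaks, against 27.0%, 13.1% and 17.9% in the control libraries. The scaling factor from the median of ratios over peaks was 1.81 for control 1, against 0.785 to 1.16 for the other libraries, and the median log2 difference over all tested peaks was -0.54. Scaling by these factors, called the second scaling here, brought that median to -0.02, and changes are given under both. The tag shares of replicates over peaks differed by about the sampling noise of reads (chi-square per degree of freedom 0.888 to 1.09). After the second scaling, and with edgeR or DESeq2, the p-values therefore measure little beyond that sampling noise. The values as deposited also carry the differences in scale between libraries, and their p-values measure that spread too. For the Adipoq peak 13518 bp beyond its start, the SE of the log2 difference was 0.36 as deposited and 0.11 after the second scaling.

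As deposited, 1 of the 13 peaks passed the threshold, beside 3.03% of all 37358 tested peaks, of which 428 were higher (1.15%) and 704 lower (1.88%). Under the second scaling 3 of 13 passed, beside 29.8% of all peaks, of which 6368 were higher and 4753 lower. As deposited, the C26 values of 6 peaks lay wholly below control, beside 34% of all peaks, and those of 1 wholly above, beside 3.24%. After the second scaling these counts were 4, beside 19.4%, and 3, beside 21.7%. The median log2 difference of the 13 was -0.80 as deposited and -0.27 after the second scaling.

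The peak that passed is the only one named for Lep, an intergenic peak 28273 bp beyond its start (chr6:29088151-29088838, mm10). It had 10.1, 7.64 and 10.4 tags per 10 M in C26 libraries 1 to 3, against 37.1, 20.9 and 34.1 in control libraries 1 to 3, from 11 to 19 tags in C26 and 31 to 41 in control. All C26 values lay below all control values under both scalings. The log2 difference was -1.58 with an SE of 0.42 (limma adjusted p = 0.0146) as deposited and -1.08 (adjusted p = 0.000313) after the second scaling. As deposited, the call was lost when C26 1, C26 2, C26 3 or control 3 was left out (adjusted p 0.209, 0.302, 0.171 and 0.290), with differences of -1.43 to -1.82 over all 6 such fits. In those 4 fits 0.356% to 0.506% of all peaks passed.

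Of the 3 Lipe peaks, 1 had higher values in C26 medium. That peak, at chr7:25386359-25386645, lies 3610 bp into the gene at the end of a transcript of 4732471J01Rik, and it was in the peak lists of all 3 C26 libraries and 0 control libraries, as were 2.39% of all peaks. It had 14.05, 10.8 and 11.5 tags per 10 M in C26 libraries 1 to 3, against 8.49, 4.73 and 7.41 in control libraries 1 to 3, from 16 to 21 tags in C26 and 7 to 10 in control. The groups did not overlap. The log2 difference of 0.76 with an SE of 0.47 did not pass as deposited (adjusted p = 0.235), whereas after the second scaling it was 1.24 (adjusted p = 0.00203). On recovered reads, edgeR, which called 28.9% of peaks, gave 1.41 (adjusted p = 0.00063), and DESeq2, which called 11% of peaks, gave an adjusted p of 0.0253.

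The peaks at the starts of Lipe and Pnpla2, which overlap the promoter sequences printed above, were open in all 6 libraries. The inner Lipe start (chr7:25390024-25390648) had 25.4, 22.2 and 30.2 tags per 10 M in C26 libraries 1 to 3, against 54.95, 30.04 and 43.5 in control libraries 1 to 3. The outer Lipe start (chr7:25395364-25396103) had 24.2, 34.0 and 28.3 in C26 libraries 1 to 3, against 78.2, 31.7 and 51.4 in control libraries 1 to 3. Pnpla2 (chr7:141455036-141456023) had 28.9, 26.4 and 31.0 in C26 libraries 1 to 3, against 91.6, 37.5 and 38.6 in control libraries 1 to 3. Control 1 was the highest library in each, and no peak of the 3 passed under either scaling. Their log2 differences were -0.67, -0.80 and -0.81 as deposited and -0.15, -0.27 and -0.29 after the second scaling.

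**Figure D5:**
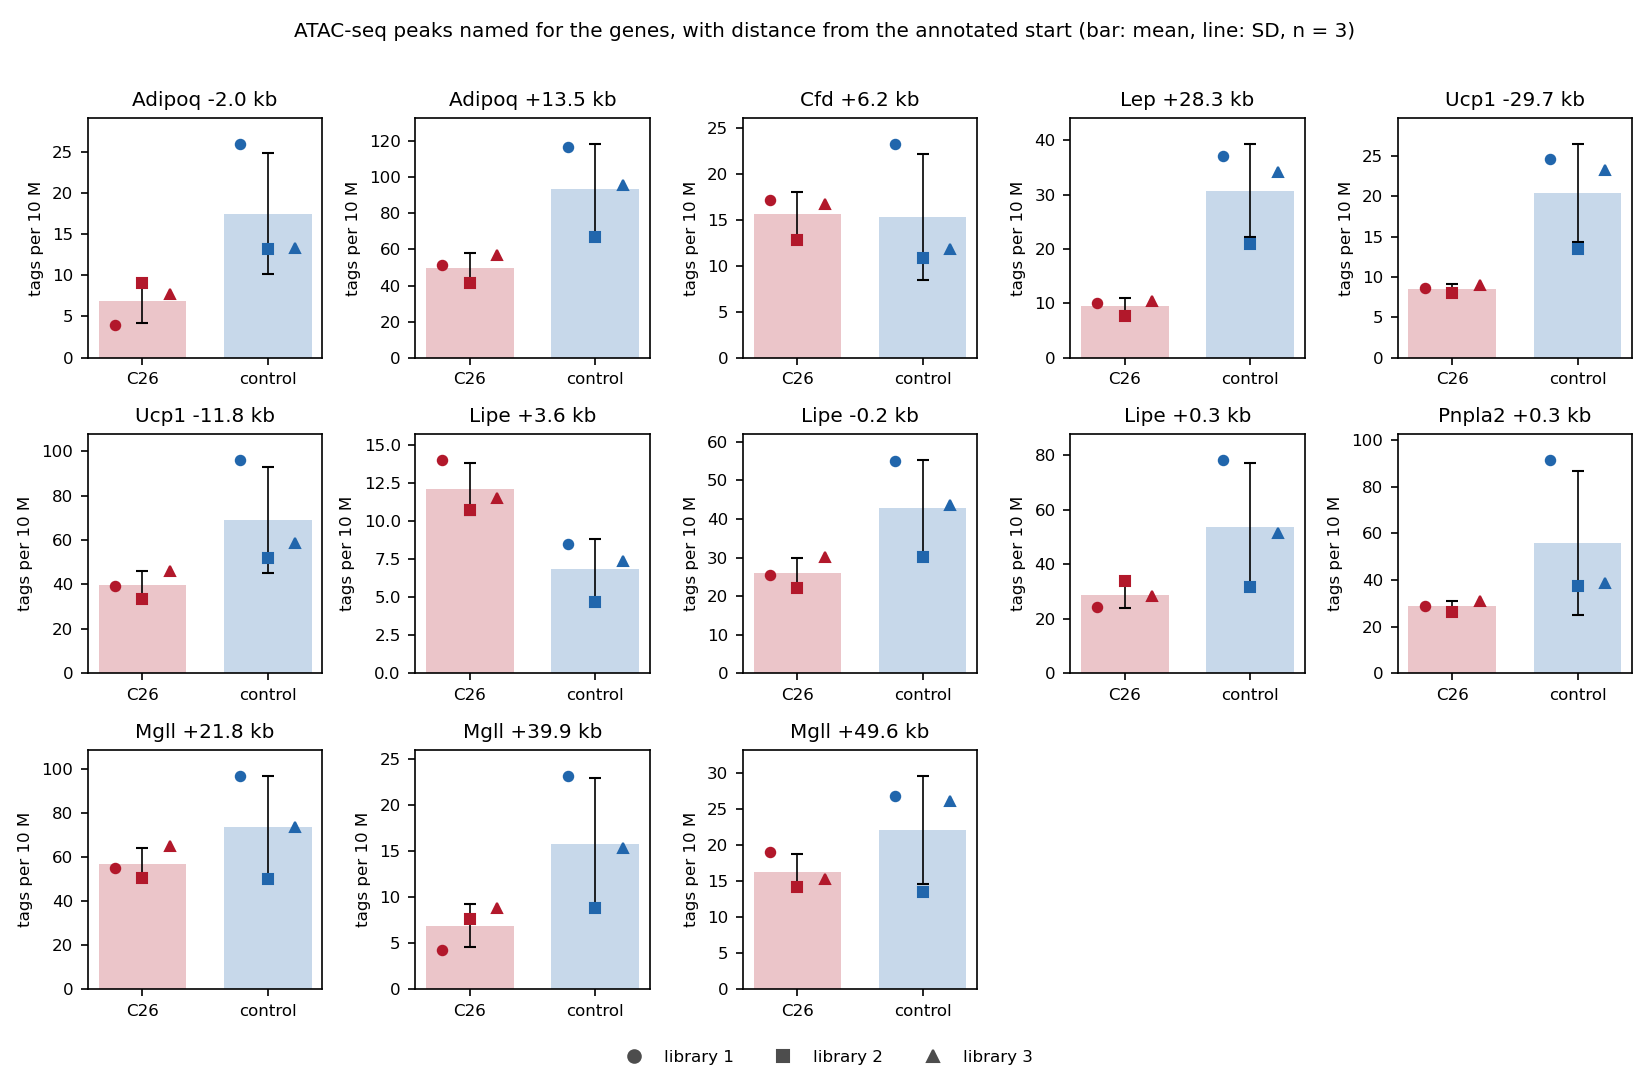
Tags per 10 M (vertical axis, linear, from 0, its own scale in each panel) in the 13 peaks named for the genes, in C26 medium (red, left) and control (blue, right), 1 symbol per library, with the mean as a bar and the SD of 3 as a line. Control 1 (blue circle) is the highest control library in every panel, the Lep peak is lower in all C26 libraries, and the Lipe peak at +3.6 kb is higher in all of them.

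Both Adipoq peaks had lower means in C26 medium under both scalings. The peak 1984 bp before the start (chr16:23144441-23144663) had 3.90, 9.02 and 7.69 tags per 10 M in C26 libraries 1 to 3, against 25.9, 13.2 and 13.35 in control libraries 1 to 3, and was in 0 C26 and 3 control peak lists, as were 1.68% of all peaks. Its groups did not overlap as deposited and overlapped after the second scaling, and the log2 difference was -1.23 (adjusted p = 0.0916) and -0.74 (adjusted p = 0.0644). The peak 13518 bp beyond the start (chr16:23159779-23160329) had the highest mean of the 13 over the 6 libraries, with 51.1, 41.3 and 57.1 in C26 libraries 1 to 3, against 117, 66.8 and 95.9 in control libraries 1 to 3. Its groups did not overlap under either scaling, but after the second they nearly met, at 64.1 in C26 3 and 64.8 in control 1. The log2 difference was -0.87 (limma adjusted p = 0.118) as deposited and -0.34 (limma adjusted p = 0.0191) after the second scaling. On recovered reads this peak did not pass with edgeR (adjusted p = 0.0567) or with DESeq2 (adjusted p = 0.276).

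The peaks named for Mgll all lie in its introns. The peak 39876 bp beyond the start (chr6:88764333-88764827) was in 0 C26 and 3 control peak lists. It had 4.29, 7.64 and 8.79 tags per 10 M in C26 libraries 1 to 3, against 23.2, 8.78 and 15.3 in control libraries 1 to 3, a log2 difference of -1.04 as deposited and -0.55 after the second scaling, with an adjusted p of 0.132 and 0.185. The other Mgll peaks, 21799 and 49579 bp beyond the start, had log2 differences of -0.33 and -0.38 as deposited and 0.20 and 0.13 after the second scaling, so their direction turned with the scaling.

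The peaks named for Ucp1 lie 29713 and 11755 bp before its start, the farther one inside an intron of Tbc1d9. They had log2 differences of -1.13 and -0.74 as deposited and -0.63 and -0.22 after the second scaling, and did not pass under either. The peak named for Cfd lies 6210 bp beyond its start, in an intron of Med16, and averaged 15.6 ± 2.39 tags per 10 M in C26 and 15.3 ± 6.89 in control (SD, n = 3 each). Its log2 difference was 0.09 as deposited and 0.60 after the second scaling (adjusted p = 0.882 and 0.0589), and its sign turned as deposited when control 2 or control 3 was left out (-0.10 and -0.04).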

How the data were processed

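PolyA RNA of mouse muscle and ATAC-seq of C2C12 myotubes were analysed from tables deposited by the authors, with 3 libraries in each of 4 groups. Per the file headers, HOMER made the FPKM values over exons of mm10 RefSeq transcripts, reading both strands and condensing each gene to 1 transcript. ATAC signal was deposited as tags per peak for every 10 M tags of the library, per the file headers. The submitters' processing notes name HISAT2, HOMER, DESeq2, Bowtie2 and MACS2. Their versions and roles, read trimming, duplicate removal, Tn5 offset and peak thresholds are not given in the sources used. All 12 sample columns were used.

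Low values were whole multiples of 1 read end within 0.1 of a step for 100% of those checked, which gave the tags and the depth. Genes averaging 1 FPKM or more and peaks averaging 5 or more were tested on log2(value + 1) with limma 3.58.1 in R 4.3.3 (trend, two-sided, Benjamini-Hochberg over all features, threshold 0.05). Such log2 differences understate changes of low genes. An exact permutation test of 3 against 3 cannot go below 0.1, so none is given. edgeR 4.0.16 and DESeq2 1.42.0 were run on recovered reads, and the code was tested on simulated data. Alternatives were other pseudocounts, filters and scalings, a replicate term and leaving out each library. Tables and plots used Python 3.11.15, numpy 2.4.6, pandas 2.3.3 and matplotlib 3.10.9. The 10 genes and 14 lists of 143 genes were chosen with earlier results of these data known. Named from each list were up to 4 tested genes with the smallest p, defining markers, and the 8 genes most like Adipoq and Pnpla2. Gnas, Prkacb, Adrb3, Pparg, Agpat2, Npr3, Kdr, Emcn and Soat1 were named after their values were seen. One gene that this rule names is not reported here.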

Additional observations from a re-analysis of the deposited data

How the results depend on the processing

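In the RNA, the count of called genes was 0, and 1 with a mean of at least 5 FPKM, 1 with median-of-ratios scaling, 2 as TPM, 1 with edgeR and 267 with DESeq2; leaving out each library gave 0 in every case. The 1745 genes whose groups did not overlap became 1119 with a mean of at least 5 FPKM and 2283 to 5600 as each library was left out, the highest count without PBS 1. Among the 9 genes, Adipoq ran from -0.36 to 0.67 and Cfd from -0.42 to 0.80 as each library was left out, negative without LLC 3 only, and Retn turned to 0.20 with edgeR and 0.20 with DESeq2. In the ATAC, 1132 called peaks became 471 with a mean of at least 20, 11121 with median-of-ratios scaling, 10803 with edgeR, 4124 with DESeq2 and 133 to 20602 as each library was left out, the highest count without control 2. The 13899 peaks whose groups did not overlap became 14554 to 26909. The Cfd peak ran from -0.10 to 0.42 as each library was left out. The Mgll peaks 21799 and 49579 bp from the start turned to 0.20 and 0.13 with median-of-ratios scaling, 0.25 and 0.17 with edgeR, and 0.23 and 0.15 with DESeq2. The causes were not tested. Of the 13 peaks, 9 passed with control 2 left out, beside 55.1% of all peaks, and 3 with control 1 left out, beside 12.2%. Depth limits the peak values, which rest on 5 to 131 tags a library, and those of Ucp1 and Cidea, which rest on 0 to 175 tags.

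The replicate numbers did not pair the libraries: deviations of same-numbered libraries correlated at -0.09, 0.60 and -0.60 in the RNA and at -0.01, 0.01 and -0.02 in the ATAC. With the replicate block, 0 genes and 1071 peaks were called, and no call on the 9 genes or 13 peaks changed.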

Other observations

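Among 7 tested markers of fat precursors and stroma, cells from which new fat cells arise, 1 had LLC values wholly above PBS and 2 wholly below, beside 9.5% and 3.94% of all tested genes, and 0 passed the limma test. Ly6a, which encodes the stem cell antigen Sca-1 and is also made by endothelium, had 109, 127 and 130.4 FPKM in LLC libraries 1 to 3, against 85.7, 69.1 and 52.8 FPKM in PBS libraries 1 to 3 (log2 difference 0.83, SE 0.20). Pi16, a mark of fibroblast progenitors, had 34.6, 35.3 and 25.01 FPKM in LLC libraries 1 to 3, against 43.7, 50.7 and 40.96 FPKM in PBS libraries 1 to 3 (log2 difference -0.51, SE 0.17). Dpp4, another such mark, had 2.42, 3.20 and 3.91 FPKM in LLC libraries 1 to 3, against 4.08, 5.58 and 4.81 FPKM in PBS libraries 1 to 3 (log2 difference -0.49, SE 0.18). For these 3 genes LLC 3 did not stand apart as it did for Adipoq, Cfd, Retn and Cidec.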
